A study of Mus musculus with 12 samples.

Results

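Scavenger and mannose receptors of resident macrophages were examined as a group of 10 genes, namely Cd163, Mrc1, Msr1, Marco, Stab1, Siglec1, Cd5l, Lrp1, Clec7a and Adgre1. They were taken by symbol from a table of 18467 genes, and all 10 were found. RNA had been sequenced from macrophages sorted from the femur and tibia marrow of female Albino B6 mice, in which bone metastases had been made by injecting E0771 cells, a mouse breast cancer line, into the caudal artery at 8 weeks of age, or from healthy control mice. There were 4 groups of 3 libraries, each library from a different mouse. The labels give an age of 8 weeks for all 4 groups. General macrophages were sorted as CD11b+ F4/80+ cells and niche macrophages as VCAM1+ CD163+ CCR3+ cells, and both sorts were made from healthy (normal) marrow and from marrow with E0771 bone metastases. Every group had its red blood cells lysed before sorting, and no group carried a transgene, deletion or drug treatment in the labels. Replicates are numbered as in the labels, except for niche macrophages of healthy marrow, whose libraries are called A, B and C. Library totals lay between 13687957 and 30332442 counts.

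Scavenger receptors take up modified lipoproteins, haemoglobin complexes, microbial surfaces and cell debris, and deliver them to endosomes and lysosomes. The mannose receptor and the sialic acid binding lectins recognise glycans on proteins and cells. In bone marrow, macrophages rich in these receptors are known from erythroblastic islands, where they hold developing red cells and clear expelled nuclei and haemoglobin.

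CD163 was an antigen of the niche sort and F4/80, the product of Adgre1, an antigen of the general sort, so the levels of Cd163 and Adgre1 in the populations are given as a check of the sorts. Cd163 followed its antigen, whereas Adgre1 was higher in the niche sort of normal marrow. The other 8 genes were not used for sorting. Symbols were located on GRCm38 with GENCODE M21. Both Mrc1 (chromosome 2, 14229392 to 14332057) and Siglec1 (chromosome 2, 131069220 to 131086765) lie on chromosome 2. Cd163 (124304656 to 124330527) and Clec7a (129461591 to 129472779) lie on chromosome 6. Cd5l lies on chromosome 3 (87357881 to 87371073), Lrp1 on chromosome 10 (127538161 to 127621148), Adgre1 on chromosome 17 (57358691 to 57483527), Msr1 on chromosome 8 (39581685 to 39642673), Stab1 on chromosome 14 (31139013 to 31168641) and Marco on chromosome 1 (120474538 to 120505024). The annotation classes Clec7a as a polymorphic pseudogene and the other 9 as protein coding. Mir511 lies within Mrc1 on the same strand, Nt5dc2 overlaps Stab1 and the antisense gene Gm16217 overlaps Lrp1 on the opposite strand. Whether the counting used strand is not given in the sources used here, so reads of overlapping genes cannot be told apart.

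The labelled cell type was checked with 9 resident macrophage markers. Their summed level lay between 165 and 222 CPM (counts scaled to a common library total) in general macrophages of healthy marrow and between 3999 and 5151 CPM in niche macrophages of healthy marrow. In metastatic marrow the ranges were 144 to 294 CPM and 1694 to 3480 CPM. Vcam1 is 1 of the 9 and encodes an antigen of the niche sort, so its share of these sums is no independent check. Its means were 63.4 CPM in the general and 2161 CPM in the niche sort of healthy marrow, and 82.4 and 1166 CPM in metastatic marrow. All 9 markers had positive log2 fold changes of niche over general macrophages in both marrow states, and 4 were called in each. Timd4, which marks long-lived resident macrophages, had a mean of 0.0593 CPM in the general and 15.7 CPM in the niche sort of healthy marrow. The 12 neutrophil markers summed to between 22093 and 23271 CPM in the general and between 10983 and 14108 CPM in the niche sort of normal marrow, and the 6 monocyte markers to between 4261 and 4413 CPM and between 773 and 1332 CPM. The sum of the 11 measured erythroid markers went the other way, at 16.3 to 113 CPM in general and 788 to 1229 CPM in niche macrophages of healthy marrow, as did that of the 10 measured B and plasma cell markers (161 to 265 and 1242 to 2317 CPM). The part of these other cells in the receptor results was not tested. In sorted bulk samples, fewer cells of a type and less RNA per cell cannot be told apart.

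Niche macrophages carried far more transcript of the mannose receptor, the sialic acid receptor Siglec1 and the secreted scavenger protein Cd5l than general macrophages. In normal marrow Mrc1, Siglec1 and Cd5l were higher by 62.8-fold, 12.9-fold and 25.2-fold, and Clec7a, the beta-glucan receptor dectin-1, was lower. Mrc1, Siglec1 and Cd5l were also higher in the niche sort of metastatic marrow, whereas Clec7a did not pass there. Lrp1 was above general macrophages in each niche library of the same marrow but missed the threshold, and Msr1, Stab1 and Marco showed no difference that passed. Including the sorting antigens, 6 of the 9 tested genes were called in normal marrow, 5 higher and 1 lower, where 2.47% of all 12882 tested genes passed edgeR's quasi-likelihood test at an adjusted p-value under 0.05 (1.5% higher and 0.97% lower). In metastatic marrow 4 of 9 were called, all higher, against 0.831% of all tested genes (0.574% higher and 0.256% lower). Of the calls among all genes there, 69.2% were higher, and 82.8% with scaling by library size only, under which no receptor call changed direction. Without the 2 antigens the counts were 4 of 7 and 3 of 7. The niche and general libraries did not overlap for 6 higher genes and 1 lower gene in normal marrow, where 10% and 8.78% of all tested genes did so. In metastatic marrow they did not overlap for 6 higher and 0 lower genes, beside 8.34% and 8.85%. The sorting antigens Cd163 and Adgre1 were among the 6 in both marrow states, with Mrc1, Siglec1, Cd5l and Lrp1. The median log2 fold change of the 9 genes was 1.96 in normal and 3.24 in metastatic marrow, beside 0.19 and 0.04 over all tested genes. These medians are the values of single genes, Adgre1 in normal and Stab1 in metastatic marrow. The 95% interval of Stab1 ran from -2.74 to 9.22, and its estimate moved between 1.22 and 3.82 over the alternatives. Without the 2 antigens the medians of the other 7 genes were 1.89 in normal and 3.24 in metastatic marrow, the latter again the value of Stab1. Marco failed the filter on low counts and enters none of these counts.

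**Figure D1:**
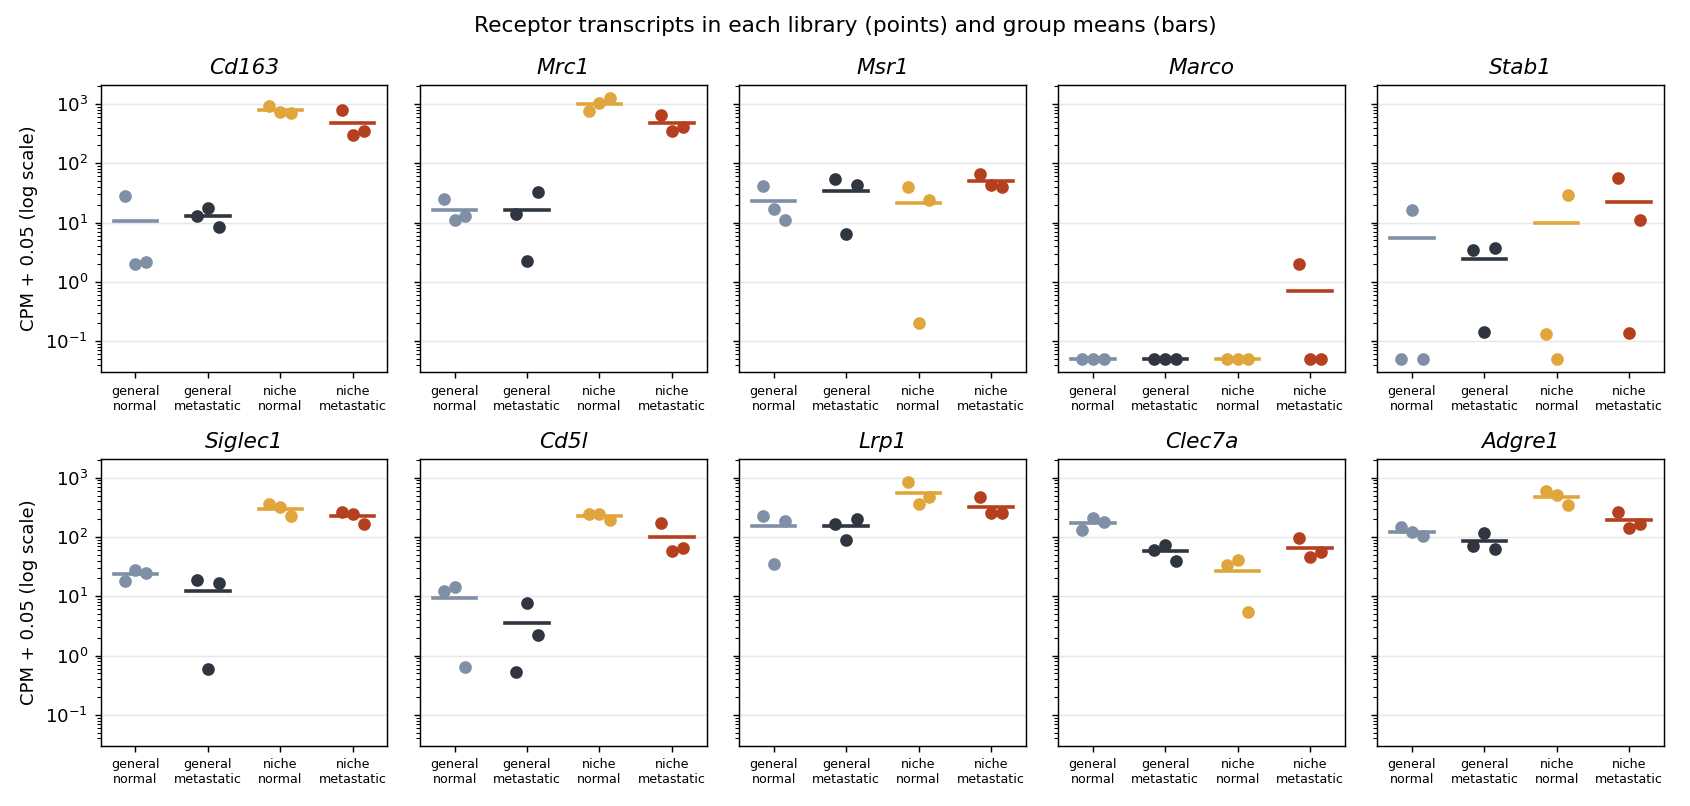
Level of each of the 10 genes in every library, as CPM plus 0.05 on a log axis, with points for the 3 libraries of a group and a bar for their mean. Mrc1, Siglec1 and Cd5l lie higher in every niche library than in any general library, Clec7a is lowest in niche macrophages of healthy marrow, and Stab1 and Marco have libraries at or near 0.

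Mrc1 encodes CD206, the mannose receptor, an endocytic lectin of resident and alternatively activated macrophages. It was at 24.6, 10.8 and 12.99 CPM in replicates 1 to 3 of general macrophages of healthy marrow and at 748, 1025 and 1262 CPM in libraries A to C of niche macrophages of healthy marrow. In metastatic marrow the general libraries were at 14.1, 2.17 and 32.2 CPM and the niche libraries at 657, 349 and 410 CPM. All 6 niche libraries lay above all 6 general libraries. The log2 fold change was 5.97 ± 0.68 (SE; edgeR adjusted p = 3.52e-05) in normal marrow and 4.87 ± 0.65 (SE; edgeR adjusted p = 0.00026) in metastatic marrow. Mrc1 kept its call in both marrow states under every alternative run, and its log2 fold change in metastatic marrow ranged from 4.35 without general replicate 2 to 5.85 without general replicate 3.

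Siglec1 encodes CD169, or sialoadhesin, which binds sialic acids on other cells and marks macrophages of erythroblastic islands and of lymph node sinuses. General macrophages from normal marrow held 18.3, 27.2 and 24.7 CPM and niche macrophages of healthy marrow 355, 326 and 226 CPM. In metastatic marrow the values were 19.0, 0.542 and 16.6 CPM in the general and 262, 241 and 163 CPM in the niche sort. The populations did not overlap, and replicate 2 of the general sort from metastatic marrow stood far below the other general libraries with 12 counts. Siglec1 was higher in niche macrophages by 3.69 ± 0.73 (SE; edgeR adjusted p = 0.00778) in normal marrow and by 4.20 ± 0.75 (SE; edgeR adjusted p = 0.00536) in metastatic marrow on the log2 scale. The second call was lost (edgeR adjusted p = 0.0652) when only the 6 libraries of metastatic marrow were fitted.

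Cd5l encodes a secreted protein of scavenger receptor cysteine-rich (SRCR) domains, the domain type that also builds CD163, and is a marker of tissue macrophages of liver, spleen and marrow. Its levels were 12.3, 14.5 and 0.599 CPM in the general and 247, 248 and 194 CPM in the niche sort of healthy marrow. Metastatic marrow gave 0.474, 7.77 and 2.20 CPM in the general and 173, 59.2 and 66.4 CPM in the niche sort. Every niche library again exceeded every general library, and the 3 general libraries of healthy marrow differed among themselves by up to 24.2-fold. The log2 fold changes were 4.65 ± 0.98 (SE; edgeR adjusted p = 0.0127) and 4.84 ± 0.99 (SE; edgeR adjusted p = 0.0181) in normal and metastatic marrow. In metastatic marrow the call was lost without replicate 1 or 3 of the general sort or replicate 1 of the niche sort (edgeR adjusted p = 0.0568, 0.123 and 0.102) and with limma-voom (adjusted p = 0.0676). The log2 fold change in these fits was 4.32, 4.57, 4.17 and 5.56, and without general replicate 2 it was 6.21.

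Cd163, the haemoglobin and haptoglobin receptor, was a sorting antigen and served as a check. It was at 28.0, 1.96 and 2.15 CPM in the general and 941, 735 and 710 CPM in the niche sort of healthy marrow, with 13.1, 17.5 and 8.31 CPM and 789, 297 and 344 CPM in metastatic marrow. No general library reached the level of any niche library. Adgre1, an adhesion G protein-coupled receptor, was at 145, 120 and 103 CPM in the general and at 589, 509 and 343 CPM in the niche sort of healthy marrow. The F4/80 transcript was therefore not restricted to the sort that used F4/80. It was higher in the niche sort of normal marrow by 1.96 ± 0.34 (SE; edgeR adjusted p = 0.00246) on the log2 scale. In metastatic marrow the levels were 70.4, 118 and 64.0 CPM and 262, 144 and 164 CPM, again without overlap, and the log2 fold change of 1.18 ± 0.33 (SE) did not pass (edgeR adjusted p = 0.166), though it did with DESeq2 (adjusted p = 0.0342) and with scaling by library size only (edgeR adjusted p = 0.0338).

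Lrp1 is a large endocytic receptor of the LDL receptor family that takes up apolipoprotein E remnants, protease complexes and haemopexin with haem. General macrophages from normal marrow held 228, 35.1 and 189 CPM and niche macrophages 844, 358 and 476 CPM. The corresponding values in metastatic marrow were 167, 89.3 and 205 CPM and 476, 255 and 250 CPM. Niche libraries lay above general ones in both marrow states, but the general libraries from normal marrow spread over 6.51-fold. The log2 fold changes of 1.89 (95% interval 0.82 to 2.96; edgeR adjusted p = 0.0569) and 1.09 (0.04 to 2.14; edgeR adjusted p = 0.562) missed the threshold. In normal marrow Lrp1 passed with DESeq2 (adjusted p = 0.00371), without a filter on low counts (edgeR adjusted p = 0.0231) and without niche library B (edgeR adjusted p = 0.0394).

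Clec7a encodes dectin-1, the C-type lectin that binds fungal beta-glucans and signals through Syk and Card9. Here the populations were ordered the other way, with 133, 211 and 180 CPM in the general and 33.6, 40.6 and 5.47 CPM in the niche sort of healthy marrow. Its log2 fold change was -2.72 ± 0.62 (SE; edgeR adjusted p = 0.0219), and no niche library reached a general one. In metastatic marrow Clec7a was at 60.3, 72.3 and 39.9 CPM in the general and 95.9, 46.2 and 55.5 CPM in the niche sort, and the libraries overlapped. The log2 fold change there was 0.20, with a 95% interval of -1.03 to 1.42. The call in normal marrow was lost without general replicate 2 or 3 (edgeR adjusted p = 0.107 and 0.0788), with only the 6 libraries of normal marrow (edgeR adjusted p = 0.0937) and with limma-voom (adjusted p = 0.14), while its log2 fold change lay between -3.18 and -2.23 over all 14 alternatives.

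**Figure D2:**
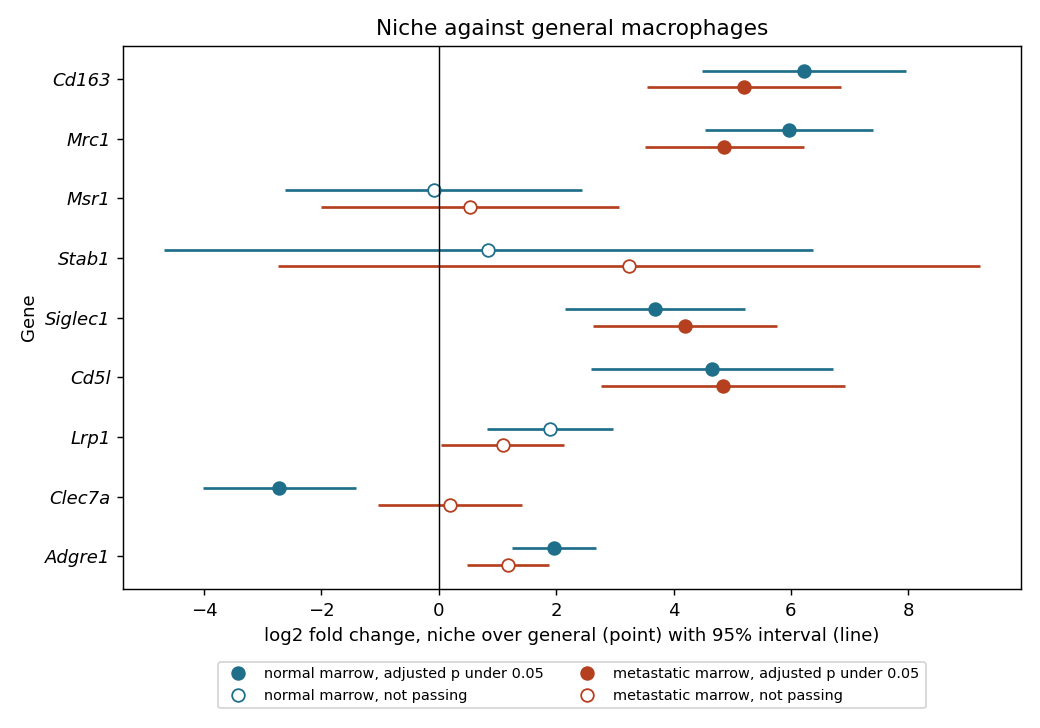
Log2 fold change of niche over general macrophages for the 9 tested genes, with points for normal and metastatic marrow and lines for 95% intervals; filled points passed an edgeR adjusted p-value of 0.05. Mrc1, Siglec1 and Cd5l lie at 3.69 or more in both marrow states, and Clec7a lies at -2.72 in normal and 0.20 in metastatic marrow.

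The class A receptors Msr1 and Marco bind modified lipoproteins and bacterial surfaces, and Stab1 (stabilin-1) is an endocytic receptor of macrophages and of sinusoidal endothelium. Msr1 was at 40.6, 16.6 and 10.8 CPM in the general and 40.1, 0.149 and 23.7 CPM in the niche sort of healthy marrow. It reached 55.0, 6.33 and 42.2 CPM in the general and 66.7, 43.6 and 40.3 CPM in the niche sort from metastatic marrow. The populations overlapped in both marrow states, and niche library B held 3 counts of Msr1 beside 494 and 473 in libraries A and C. The log2 fold changes were -0.09 (95% interval -2.62 to 2.44) and 0.54 (-2.00 to 3.08), so changes of several fold in either direction remained within the intervals.

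Stab1 was detected in some libraries of each group and nearly missing from others. General macrophages from normal marrow had 0, 274 and 0 counts and niche macrophages of healthy marrow 1, 0 and 580. In metastatic marrow there were 92, 2 and 101 counts in general and 1117, 2 and 299 in niche macrophages. This all-or-none pattern, at most 3 counts in 1 library of a group and at least 100 in another, was found for Stab1 in all 4 groups and for Msr1 in niche macrophages of healthy marrow. It was common in these data, with 23.3% of tested genes in general and 25.4% in niche macrophages of healthy marrow, and 16.6% and 25.6% in metastatic marrow. Between populations Stab1 had a log2 fold change of 0.85 in normal (95% interval -4.68 to 6.37) and 3.24 in metastatic marrow (-2.74 to 9.22). Marco had 39 counts in replicate 1 of niche macrophages from metastatic marrow and 0 in the other 11 libraries, where 3 counts, the limit that a count of 0 allows, correspond to between 0.109 and 0.243 CPM.

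Of the sinusoidal endothelial markers, which would share Stab1, Mrc1 and Lrp1, 7 of 12 were in the table. Their sum was 0.300 to 9.43 CPM in general and 23.9 to 48.2 CPM in niche macrophages of healthy marrow, and 0.0904 to 3.94 and 13.3 to 33.5 CPM in metastatic marrow. Cdh5, an endothelial cadherin, had means of at most 0.0168 CPM in every group, whereas Tie1 reached 538 counts in a niche library of healthy marrow and Kdr, Tek and Egfl7 reached 362, 299 and 194 counts in niche libraries of metastatic marrow. Lyve1 went the other way, with up to 158 and 40 counts in general libraries of healthy and metastatic marrow and 0 in every niche library. Stab2, a paralogue of Stab1 that is itself a scavenger receptor, supplied most of the sum in niche macrophages of healthy marrow with a mean of 23.5 CPM. The part of endothelial cells in the receptor levels was not tested.

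Levels between genes were compared as CPM per kilobase of the longest coding transcript. In niche macrophages of healthy marrow the order was Mrc1 (188 ± 47.9), Cd163 (179 ± 28.5), Adgre1 (148 ± 38.8), Cd5l (113 ± 15.1), Siglec1 (47.3 ± 10.6), Lrp1 (37.6 ± 17.0), Clec7a (11.7 ± 8.16) and Msr1 (5.87 ± 5.52) CPM per kilobase (SD, n = 3). Neighbours in this order had overlapping ranges of mean ± SD, except for the steps from Cd5l to Siglec1 and from Lrp1 to Clec7a. In niche macrophages from metastatic marrow Cd163 (107 ± 61.1) and Mrc1 (87.8 ± 30.4) led again, and Clec7a was at 28.9 ± 11.6 CPM per kilobase (SD, n = 3). General macrophages from normal marrow had another order, with Clec7a first (76.6 ± 17.1), Adgre1 second (38.0 ± 6.51) and Mrc1 in place 7 of the 10 genes (3.00 ± 1.38 CPM per kilobase; SD, n = 3). In the general sort of metastatic marrow Adgre1 (25.9 ± 9.06) and Clec7a (25.2 ± 7.18 CPM per kilobase; SD, n = 3) were level.

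**Figure D3:**
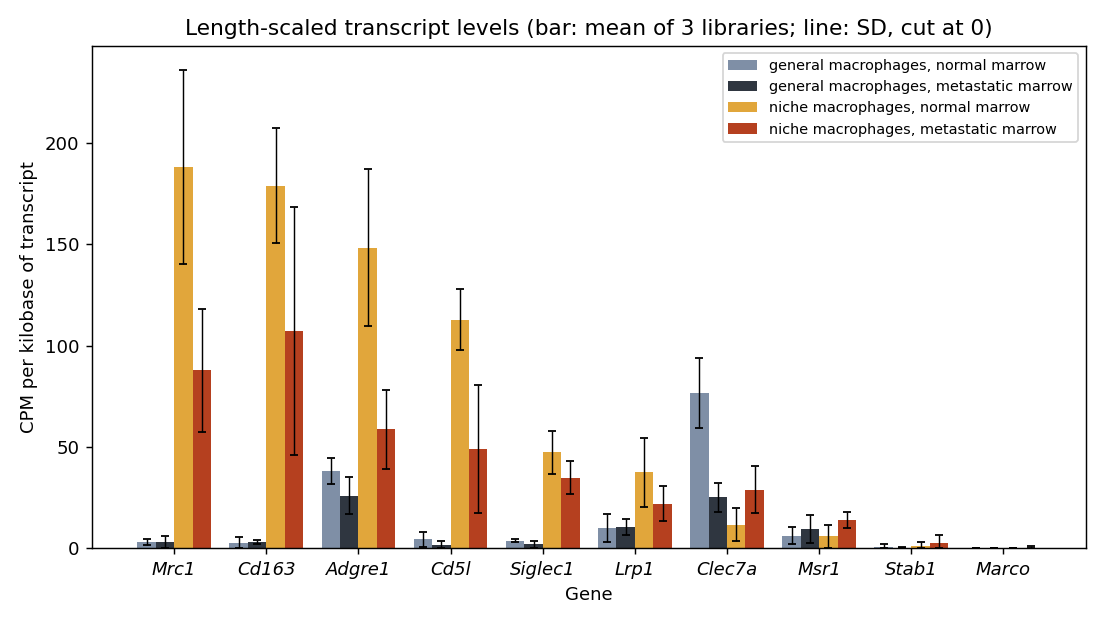
Length-scaled level of the 10 genes, as CPM per kilobase of the longest coding transcript, with bars for group means of 3 libraries and lines for the SD, cut at 0. Mrc1, Cd163, Adgre1 and Cd5l lead in niche macrophages of healthy marrow at 113 or more, and Clec7a leads in general macrophages of healthy marrow at 76.6.

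The order of the 4 groups was the same for Adgre1, Siglec1 and Cd5l, from niche normal through niche metastatic and general normal to general metastatic. For Mrc1, Cd163 and Lrp1 the 2 general groups changed places. The step from niche metastatic to the next general group had no overlap for 5 of these 6 genes, the exception being Adgre1, with 144 CPM in niche replicate 2 and 145 CPM in general replicate 1. The step from niche normal to niche metastatic had no overlap for Mrc1, Cd5l and Adgre1, and the 2 general groups overlapped for all 6. Clec7a followed its own order, with general normal first and niche normal last.

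Promoters are shown for receptors with large differences between the populations, since MAF and SPIC are transcription factors of island macrophages whose transcripts also differed here. Sequences were found for 7 of the 10 genes in RefSeq (GRCm38.p6). The 250 bases before the annotated start are printed 5′ to 3′ on the strand of the gene, at chr2:14229164-14229413 (plus strand) for Mrc1, chr3:87357631-87357880 (plus) for Cd5l, chr6:124304401-124304650 (plus) for Cd163 and chr6:129472780-129473029 (minus) for Clec7a. Capitals mark GAGGAA, the core of PU.1 and SPIC sites, and TGCTGA, the half-site of MAF proteins, each on either strand.
Mrc1: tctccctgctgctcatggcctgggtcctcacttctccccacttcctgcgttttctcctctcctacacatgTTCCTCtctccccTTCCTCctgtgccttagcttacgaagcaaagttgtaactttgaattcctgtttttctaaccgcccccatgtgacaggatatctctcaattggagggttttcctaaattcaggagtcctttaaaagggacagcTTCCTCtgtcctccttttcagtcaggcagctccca
Cd5l: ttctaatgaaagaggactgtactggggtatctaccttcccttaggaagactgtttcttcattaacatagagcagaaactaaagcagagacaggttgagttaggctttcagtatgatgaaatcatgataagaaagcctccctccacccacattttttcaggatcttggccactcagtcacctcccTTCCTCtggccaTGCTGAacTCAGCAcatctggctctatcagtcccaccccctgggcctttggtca
Cd163: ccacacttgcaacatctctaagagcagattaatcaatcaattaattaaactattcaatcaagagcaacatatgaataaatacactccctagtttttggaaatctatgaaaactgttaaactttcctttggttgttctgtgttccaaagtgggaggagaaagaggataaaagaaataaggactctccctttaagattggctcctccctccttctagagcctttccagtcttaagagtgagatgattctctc
Clec7a: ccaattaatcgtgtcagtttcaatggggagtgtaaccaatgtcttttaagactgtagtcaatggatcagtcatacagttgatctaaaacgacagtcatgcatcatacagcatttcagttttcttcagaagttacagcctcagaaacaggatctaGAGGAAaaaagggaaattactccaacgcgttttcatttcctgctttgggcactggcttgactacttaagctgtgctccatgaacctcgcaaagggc

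GAGGAA was found 3 times in the Mrc1 window, once each in the windows of Cd5l, Clec7a, Stab1 and Marco, and not in those of Cd163 and Lrp1. It occurs in 23.3% of 32851 promoter windows of the same length. The Cd5l window holds the MAF half-site on both strands, facing each other with 2 bases between them and starting 54 bases before the gene, an arrangement found in 2 of all 32851 windows (0.00609%). TGCTGA alone occurs in 16.1% of windows, 1 time in that of Stab1, and not in those of Mrc1, Cd163, Clec7a, Lrp1 and Marco. CACGTG, the E-box of TFE3 and MITF, occurs in 6.02% of windows and in none of the 7, and AGGTCA repeated after 4 bases, the element of liver X receptors, in 0.0152% and in none of the 7. A match is a run of letters in the reference, not a measured site.

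Of 15 tested transcription factors, 4 were called higher and 1 lower in normal marrow, and 2 higher in metastatic marrow. Their median log2 fold changes, 0.17 and 0.0065, lay close to those of all tested genes, 0.19 and 0.04. Maf was at 19.8 ± 10.02 CPM in the general and 424 ± 26.7 CPM in the niche sort of healthy marrow (mean ± SD, n = 3; log2 fold change 4.42, edgeR adjusted p = 3.31e-06), and at 8.86 ± 1.27 and 259 ± 82.9 CPM in metastatic marrow (SD, n = 3; log2 fold change 4.87, edgeR adjusted p = 2.56e-06). Spic, needed for macrophages that recycle iron, was higher in niche macrophages by 7.24 ± 0.95 (SE; edgeR adjusted p = 0.000153) in normal and by 4.25 ± 0.82 (SE; edgeR adjusted p = 0.0117) in metastatic marrow on the log2 scale. Irf8 was higher and Bach1, a repressor that haem inactivates, was lower in niche macrophages of healthy marrow, with log2 fold changes of 1.77 and -1.30.

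Genes related to the receptors by family or pathway were read in 10 lists, chosen with earlier results of these data known, of which 98 of 133 genes were tested. In normal marrow 7 were called higher and 7 lower, where 1.5% and 0.97% of all tested genes were, and in metastatic marrow 3 and 1, where 0.574% and 0.256% were. Among 10 tested scavenger receptors, Scarb2, a lysosomal membrane relative of CD36, was the 1 called, at 40.5 ± 9.31 CPM in the general and 244 ± 135 CPM in the niche sort of healthy marrow (mean ± SD, n = 3; log2 fold change 2.59, edgeR adjusted p = 0.00549). Cxcl16 and Cd68 did not pass in either marrow state. Among 18 tested C-type lectins, Clec5a, a myeloid receptor that signals through DAP12, was the 1 called, at 399 ± 29.3 CPM in the general and 134 ± 58.2 CPM in the niche sort of healthy marrow (mean ± SD, n = 3; log2 fold change -1.57, edgeR adjusted p = 0.0101). Cd209f had at most 4 counts in any general library of normal marrow and up to 1559 in niche macrophages of healthy marrow, and did not pass (edgeR adjusted p = 0.098).

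The sialic acid binding lectin Cd33 was lower in niche macrophages of healthy marrow, at 1012 ± 157 CPM against 1805 ± 174 CPM in general macrophages (SD, n = 3; log2 fold change -0.84, edgeR adjusted p = 0.0296), so that it moved against Siglec1. It was the 1 called of 5 tested relatives of Siglec1, and none of them passed in metastatic marrow. Adgre4, a family member of Adgre1, was at 40.4 ± 8.18 CPM in the general and 344 ± 182 CPM in the niche sort of healthy marrow (mean ± SD, n = 3; log2 fold change 3.09, edgeR adjusted p = 0.000919). Its log2 fold change of 1.82 in metastatic marrow did not pass (edgeR adjusted p = 0.0804). Of 12 tested LDL receptor family genes, 2 were called and both were lower in niche macrophages of healthy marrow, whereas Lrp1 was above general macrophages there. Sorl1, a sorting receptor of the family, was at 1185 ± 185 CPM in the general and 491 ± 101 CPM in the niche sort (SD, n = 3; log2 fold change -1.27, edgeR adjusted p = 0.00288). None of the 12 passed in metastatic marrow. The 3 other tested genes with SRCR domains were not called in either marrow state.

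Ligands and signalling partners gave 3 further calls in normal marrow. Lpl, a lipase that bridges lipoproteins to LRP1, was at 43.3 ± 17.6 CPM in the general and 508 ± 52.8 CPM in the niche sort (SD, n = 3; log2 fold change 3.55, edgeR adjusted p = 0.000136), and Thbs1, thrombospondin-1, a ligand of CD36 and LRP1, was lower (log2 fold change -1.20, edgeR adjusted p = 0.014). Both were called in the same direction in metastatic marrow, with log2 fold changes of 3.10 and -1.24. Prkcd, the kinase that links Syk to Card9 downstream of dectin-1, was lower in niche macrophages of healthy marrow along with Clec7a (log2 fold change -1.75, edgeR adjusted p = 0.00843). The other 9 tested genes of dectin-1 signalling, Syk and Card9 among them, were not called in either marrow state, and neither were the 7 tested endocytic adaptors and shedding proteases.

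Metastatic and normal marrow were then compared within each population, to ask whether bone metastasis changed receptor transcripts. None of the 9 tested genes was called by edgeR in either population. In general macrophages 1 of 9, Clec7a, had an unadjusted edgeR p-value under 0.05, and in niche macrophages 2 of 9, Clec7a and Adgre1, did. Of all 12882 tested genes, 660 in general and 1642 in niche macrophages had such a p-value. The share of all tested genes called by edgeR was 0.0155% in general and 0.00776% in niche macrophages. DESeq2, which gave no adjusted p-value for Cd163, called none of the other 8 in general macrophages and Adgre1 in niche macrophages, and limma-voom called none of the 9 and Mrc1.

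In niche macrophages 6 of the 9 genes had negative and 3 positive log2 fold changes with metastasis, and none passed. Positive changes were found for 5609 of all 12882 tested genes. The log2 fold changes were -1.10 for Mrc1 (95% interval -2.27 to 0.07; edgeR adjusted p = 0.406), -1.20 for Cd5l (-2.99 to 0.58; edgeR adjusted p = 0.599), -0.74 for Cd163 (-2.13 to 0.65), -0.44 for Siglec1 (-1.82 to 0.93) and -0.77 for Lrp1 (-1.82 to 0.27). Mrc1 was at 348.8 to 657 CPM in metastatic and 748 to 1262 CPM in normal marrow, so that the libraries did not overlap, and those of Cd5l did not either. For Adgre1 the log2 fold change was -1.34 ± 0.33 (SE; edgeR adjusted p = 0.208), and its libraries did not overlap. DESeq2 gave an adjusted p-value of 0.00756 for Adgre1 and limma-voom one of 0.0167 for Mrc1. No overlap was found for 3 of 9 genes in the lower direction, beside 7.11% of all tested genes, and for 2, Msr1 and Clec7a, in the higher one, beside 5.63%. The median log2 fold change of the 9 genes was -0.74 and that of the 7 other than the sorting antigens -0.44, beside -0.17 over all tested genes.

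Replicate 1 of niche macrophages from metastatic marrow had the highest level of its group for all 10 genes. Its resident macrophage markers, with the sorting antigen Vcam1 among them, summed to 3480 CPM, beside 1694 and 1850 CPM in replicates 2 and 3. Of the 9 resident markers, 8 had a negative log2 fold change with metastasis in niche macrophages, and none was called. Their median was -0.89, beside -0.17 over all tested genes. The part of resident macrophage content in the receptor levels was not tested. Without replicate 1 the log2 fold changes were -1.43 for Mrc1, -1.88 for Cd5l and -1.65 for Adgre1, and none passed. Summed neutrophil markers were at 10983 to 14108 CPM in normal and 12735 to 13263 CPM in metastatic marrow in this population, and monocyte markers at 773 to 1332 and 849 to 1033 CPM.

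**Figure D4:**
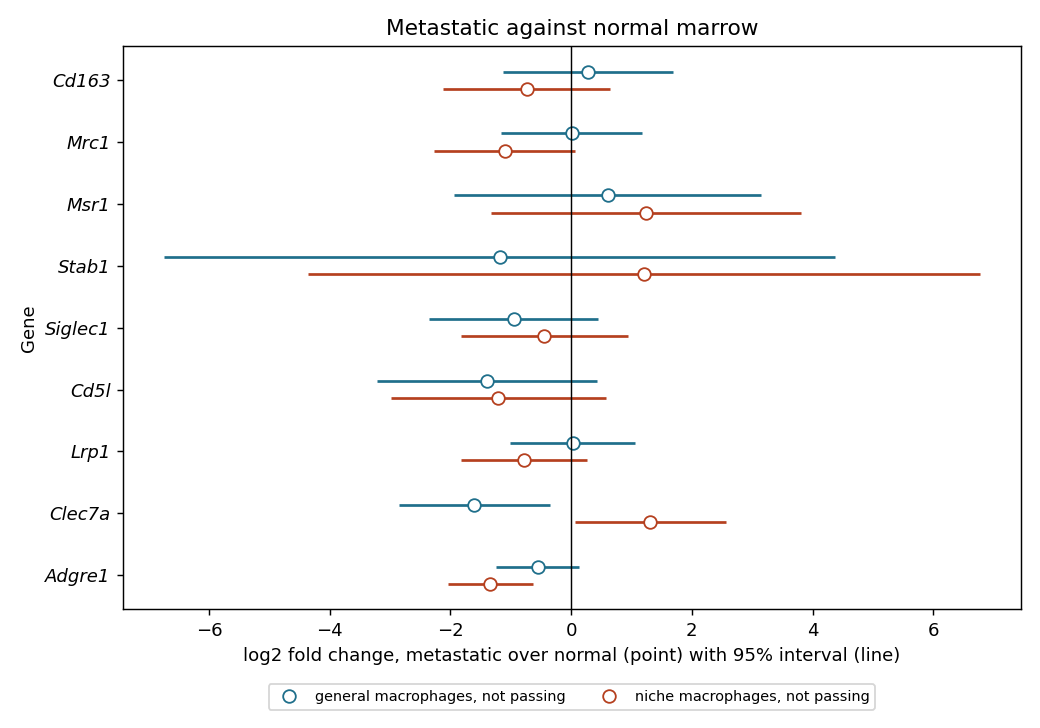
Log2 fold change of metastatic over normal marrow for the 9 tested genes in general and niche macrophages, with lines for 95% intervals; open points missed the threshold of 0.05 for edgeR's adjusted p-value. No gene is filled, and Clec7a has intervals on opposite sides of 0, at -1.60 in general and 1.31 in niche macrophages.

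Clec7a had lower levels in general and higher levels in niche macrophages with metastasis, and neither difference passed. In general macrophages it was at 133 to 211 CPM in normal and 39.9 to 72.3 CPM in metastatic marrow, a log2 fold change of -1.60 (95% interval -2.86 to -0.35; edgeR adjusted p = 0.944). In niche macrophages it was at 5.47 to 40.6 CPM in normal and 46.2 to 95.9 CPM in metastatic marrow, a log2 fold change of 1.31 (0.06 to 2.56; edgeR adjusted p = 0.387). Libraries did not overlap in either population, in opposite directions, a pattern shared by 0.528% of all tested genes (68 of 12882). The difference between the populations was 2.91 ± 0.85 (SE) on the log2 scale, with an unadjusted edgeR p-value of 0.0027 and an adjusted one of 0.452 over all tested genes. DESeq2 gave an adjusted p-value of 0.0346. Monocyte markers, which come from cells that also carry dectin-1, summed to 4261 to 4413 CPM in normal and 3846 to 4919 CPM in metastatic marrow in general macrophages. Among them Vcan had means of 42.6 and 378 CPM and Ccr2 of 1572 and 1166 CPM in normal and metastatic marrow. The part of monocytes in the Clec7a levels was not tested.

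In general macrophages the other log2 fold changes lay between -1.39 for Cd5l (95% interval -3.21 to 0.42) and 0.61 for Msr1 (-1.93 to 3.15), with libraries that overlapped for each gene. Leaving out 1 library moved the value of Cd5l to between -2.77 (without metastatic replicate 2) and -0.87 (without metastatic replicate 1), and that of Msr1 to between 0.10 (without metastatic replicate 1) and 1.33 (without normal replicate 1). Clec7a was the 1 gene of 9 without overlap, beside 5.64% of all tested genes lower and 7.27% higher without overlap. Mrc1 was at 0.01 (-1.16 to 1.17) and Lrp1 at 0.03 (-1.01 to 1.06). Whether metastasis acted differently in the 2 populations was tested for all 9 genes and none was called, as 0% of all tested genes were. Apart from Clec7a, the unadjusted edgeR p-values of that difference were 0.107 or more. Among the related genes Thbs1 was the 1 called for metastasis, with log2 fold changes of -1.63 in general (edgeR adjusted p = 0.0306) and -1.68 in niche macrophages (edgeR adjusted p = 0.0438). The first call was lost when any 1 of the 6 general libraries was left out and with scaling by library size only. The second was lost without metastatic replicate 1 or 3 or library A, with RLE, with scaling by library size only and with only the 2 groups compared. For the difference between the populations the related gene with the smallest p-value was Cd209a, a DC-SIGN homologue, which did not pass (edgeR adjusted p = 0.452).

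Across the 12 libraries, the receptors fell into those that varied together and those that did not. Correlations of log2(CPM + 1) were 0.95 between Mrc1 and Siglec1, 0.92 between Mrc1 and Cd163 and 0.91 between Cd163 and Cd5l. Clec7a was negative with each of these, at -0.62 with Mrc1, and Msr1 was at 0.03 with Mrc1. The libraries fall into 2 populations, so these values carry the difference between the sorts, and they are given as a description. Against the mean profile of the 7 tested genes other than the sorting antigens, the 5 most similar among 8136 genes averaging 10 CPM or more were Ltn1, Ms4a7, C1qb, Cadm1 and Atxn2, with Pearson correlations between 0.89 and 0.93 over 12 libraries. C1qb, a chain of complement C1q made by resident macrophages, was at 9.36 ± 4.67 CPM in the general and 217 ± 119 CPM in the niche sort of healthy marrow (mean ± SD, n = 3). Ms4a7, a membrane protein of macrophages, was at 5.26 ± 6.08 and 61.1 ± 55.4 CPM (SD, n = 3). In the same sorts Ltn1, the most similar gene, was at 123 ± 17.4 and 187 ± 24.5 CPM (SD, n = 3). Atxn2 was at 35.8 ± 4.57 and 47.4 ± 7.44 CPM and Cadm1 at 4.35 ± 4.89 and 101 ± 56.0 CPM (SD, n = 3). The profile was mixed. Against the mean of its other genes Clec7a correlated at -0.55, Msr1 at 0.15 and Stab1 at 0.29, and the rest at 0.53 to 0.80.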

How the data were processed

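The authors deposited 1 table of expected counts for 18467 gene symbols and 12 libraries. Its unit was taken from the values, of which 73.9% were whole, and no normalization was stated. The submitters' processing notes name mm10, Partek, STAR 2.7.3a, DESeq2 1.40.2 and R 4.3.1 without a role. The counting program, annotation and strandedness are not given in the sources used here. Titles call both sorts general macrophages, so the population was read from the sorting antigens. Columns of niche macrophages of healthy marrow carry numbers that differ from the titles and are called A, B and C.

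Counts were rounded, filtered with filterByExpr (12882 genes kept) and scaled by trimmed mean of M values (TMM). edgeR 4.0.16 (R 4.3.3) fitted a mean for each of the 4 groups to all 12 libraries, with quasi-likelihood F-tests and Benjamini-Hochberg adjustment over all tested genes. CPM uses TMM-scaled totals, and standard errors come from the F statistic. The procedure was tested on simulated data. No library pair of a group agreed within sampling noise (chi-square per degree of freedom of at least 139). Floors of 3 counts cover counting error only. The members and lists were chosen with earlier results of these data known. Named are all 10 receptors, from each list of related genes the 2 with the smallest p-value at a mean of 10 CPM or more or those called, and the 5 genes most similar to the receptors' mean profile; the endothelial and monocyte markers and Timd4 were picked after their values were seen. Some called genes of these lists are not reported here. As alternatives, scaling used RLE or the library size alone, and abundant transcripts were removed. The filter was dropped or raised to 10 counts in each library. Further fits took only the 2 groups compared, a replicate block, or all libraries but 1. DESeq2 1.42.0 and limma-voom (limma 3.58.1) were also run, and limma-voom used a quality weight estimated for each library.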

Additional observations from a re-analysis of the deposited data

Results flagged for a closer look

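Clec7a met the criterion that metastatic and normal libraries did not overlap in either population, with opposite directions in the 2 populations. Its log2 fold change was -1.60 in general and 1.31 in niche macrophages, and the difference was 2.91 ± 0.85 (SE). With edgeR's adjustment over the whole table the difference missed the threshold (adjusted p = 0.452), and this p-value lay between 0.0346 and 0.784 over the alternatives, passing with DESeq2 alone. The log2 difference itself stayed between 2.42 and 3.35 in all 19 alternative fits. No other of the 10 genes met the criterion, and with 3 libraries a group no single library could be tested for standing apart.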

How the results depend on the processing

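Of 677 values of single receptors under the alternatives, 628 kept direction and side of the threshold, 9 no longer passed, 8 newly passed and 32 changed sign, all 32 of them for effects that had not passed; the cause was not tested. Ranges are over fits that each leave out 1 library. The effect of metastasis in general macrophages ranged from -0.21 (-0.20 without general normal replicate 3) to 2.66 for Cd163, from -0.44 to 0.46 for Lrp1 (-0.03 and -0.26 without general metastatic replicate 1 or 3), from -1.003 to 0.53 for Mrc1 (-0.21 and -0.12 without general normal replicate 2 or 3) and from -1.76 to 8.66 for Stab1. It was -0.0561 with RLE and -0.0562 with DESeq2 for Lrp1, -0.082 and -0.0844 for Mrc1, and with limma-voom -0.46 for Mrc1 and 2.49 for Stab1. With the replicate block it was -0.62 for Mrc1 and 6.04 for Stab1. In niche macrophages Stab1 ranged from -0.82 (without metastatic replicate 1) to 9.04. Between populations in normal marrow, Stab1 gave -6.98 without niche library C and reached 10.70 over all alternatives. Msr1 ranged from -0.91 to 0.64 there (0.50 without niche library B). In metastatic marrow Clec7a ranged from -0.18 to 0.40 (-0.02 without general replicate 3). The difference between the populations ranged from -0.49 to 1.56 for Cd5l (-0.34, -0.09 and -0.33 without general metastatic replicate 1 or general normal replicate 1 or 2, -0.20 with limma-voom), from -1.63 to 0.0046 for Mrc1, from -0.10 to 1.44 for Msr1, from -0.0583 to 0.99 for Siglec1 and from -7.47 to 10.22 for Stab1.

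Receptors called numbered 5 to 7 in normal and 3 to 4 in metastatic marrow between populations when single libraries were left out, and 0 for every other comparison; DESeq2 called 1 for metastasis in niche macrophages and 1 for the difference, and limma-voom 1 for metastasis in niche macrophages. Over all genes DESeq2 called 1825 and 480 between populations in normal and metastatic marrow, 141 and 954 for metastasis in general and niche macrophages and 410 for the difference, and limma-voom 186, 178, 23 and 11 for the first 4. Fitting only the 2 groups gave 163 calls between populations in normal marrow and 0 for metastasis in niche macrophages. Metastasis in general macrophages gave 0 calls with library size only and 5 without a filter, and in niche macrophages 0 with RLE or library size only, 3 without a filter or with 10 counts in every library, and 2 without abundant transcripts. Leaving out single libraries gave 176 to 402 and 66 to 83 calls between populations in normal and metastatic marrow, 0 for metastasis in general macrophages, 0 to 66 in niche macrophages and 0 to 16 for the difference; the counts of 402, 66 and 16 came without niche library B of normal marrow. Scaling by library size only moved the median log2 fold change of all genes from 0.04 to 0.29 between populations in metastatic marrow, from -0.17 to 0.06 for metastasis in niche macrophages and from -0.13 to 0.10 for the difference.

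Deviations from the group means correlated at -0.0036 to 0.022 between libraries with the same number. With 3 libraries a group and this spread between libraries, such values cannot decide whether shared numbers mark pairs, and the main fit assumed none. The replicate block left 4 receptors and 119 genes called between populations in metastatic marrow, and 0 receptors and 3 genes for metastasis in general macrophages. No paired analysis was possible for comparisons with niche macrophages of healthy marrow because their columns carry no number that matches the titles. DESeq2 gave no adjusted p-value for Cd163 in any of the 5 comparisons. With 3 libraries a group and a biological coefficient of variation of 1.30, changes of several fold in genes such as Stab1 and Msr1 were not detectable.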
